A study of Mus musculus with 36 samples.

Results

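Clec4e, Clec4d, Clec4n, Clec5a and Clec7a encode 5 C-type lectin receptors of myeloid cells. The set was chosen with earlier results of these data known. Its members were found by gene name in the deposited annotation, and all 5 were present among 15385 genes of the microglial table and 14551 genes of the astrocyte table. In these data, Clec4e and Clec5a rose steeply in microglia after both stimuli of the RIPK1 kinase, T/5z (TNF plus 5z-7) and T/S/Z (TNF plus zVAD and a mimetic of Smac), and between 44.2% and 55.6% of that level was left when the RIPK1 inhibitor Nec-1s was added. Clec4d rose 2.46-fold after T/S/Z and changed by 1.49-fold after T/5z, just under the minimum for a call, which it passed with median centring and without replicate 2. Clec7a rose 1.81-fold after T/S/Z, a call that quantile normalization ended, and was not higher after T/5z. Clec4n passed both thresholds of the test in no microglial comparison. In astrocytes, Clec4e showed the largest change of the 5 genes after T/S/Z.

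C-type lectin receptors bind sugars and lipids of microbes and, in some cases, molecules released by dying cells. Clec4e (Mincle) binds mycobacterial glycolipid and the nuclear protein SAP130 that leaks from dead cells. Clec4d (MCL) pairs with Mincle, Clec4n (Dectin-2) binds fungal mannans, and Clec7a (Dectin-1) binds fungal beta-glucans. Clec5a (MDL-1) is a myeloid receptor known for its part in dengue infection. Clec4e, Clec4d and Clec4n signal through the adaptor Fcer1g and Clec5a through Tyrobp (DAP12), while Clec7a carries its own signalling motif. All lead to the kinase Syk and from it to the Card9, Bcl10 and Malt1 complex, which turns on NF-kB and cytokine genes. Microglia, the macrophages of the brain, carry the whole pathway.

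All 5 genes lie on chromosome 6 of the mouse build GRCm38. The genes of 3 are neighbours, with Clec4n at chr6:123229843-123247021 on the plus strand, Clec4d at chr6:123262117-123275265 on the plus strand and Clec4e at chr6:123281789-123289870 on the minus strand, as the microglial annotation gives them. Clec5a lies at chr6:40574894-40585803 and Clec7a at chr6:129461591-129472777, both on the minus strand. Each was annotated as protein coding except Clec7a, which was annotated as a polymorphic pseudogene in both tables. None of the 5 carried the annotation's confounded mark, which that annotation does not define.

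The bases just before the start of 4 of the genes are shown because the sizes of the microglial changes differed between them, from 11.9-fold to 64.8-fold for Clec5a and Clec4e after the stimuli and no more than 2.46-fold for Clec4d and Clec7a. The sequences are from RefSeq (GRCm38.p6), each the 250 bases before the start, written 5′ to 3′ in the reading direction of the gene. They cover chr6:123289872-123290121 (minus strand) for Clec4e, chr6:40585806-40586055 (minus strand) for Clec5a, chr6:123261857-123262106 (plus strand) for Clec4d and chr6:129472780-129473029 (minus strand) for Clec7a. The RefSeq start lay between 0 and 16 bases from the start in the astrocyte annotation. Capitals mark each match, on either strand, to TTGCNNAA (C/EBP factors), TGANTCA (AP-1), GGANNTTCC (NF-kB) or GAGGAA (PU.1).
Clec4e: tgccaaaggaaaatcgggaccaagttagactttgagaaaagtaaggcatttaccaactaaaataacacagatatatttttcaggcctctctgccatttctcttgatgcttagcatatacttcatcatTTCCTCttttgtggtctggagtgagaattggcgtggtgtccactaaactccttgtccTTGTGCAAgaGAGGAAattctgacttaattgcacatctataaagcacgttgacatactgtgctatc
Clec5a: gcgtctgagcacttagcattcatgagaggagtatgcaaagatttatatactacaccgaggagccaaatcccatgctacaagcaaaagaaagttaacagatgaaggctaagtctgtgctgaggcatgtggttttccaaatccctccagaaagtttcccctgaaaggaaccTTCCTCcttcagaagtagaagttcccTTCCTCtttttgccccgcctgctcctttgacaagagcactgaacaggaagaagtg
Clec4d: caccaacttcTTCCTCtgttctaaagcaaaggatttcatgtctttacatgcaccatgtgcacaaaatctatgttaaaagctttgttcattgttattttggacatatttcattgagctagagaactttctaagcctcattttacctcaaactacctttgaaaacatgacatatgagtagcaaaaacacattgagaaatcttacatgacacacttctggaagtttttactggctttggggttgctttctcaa
Clec7a: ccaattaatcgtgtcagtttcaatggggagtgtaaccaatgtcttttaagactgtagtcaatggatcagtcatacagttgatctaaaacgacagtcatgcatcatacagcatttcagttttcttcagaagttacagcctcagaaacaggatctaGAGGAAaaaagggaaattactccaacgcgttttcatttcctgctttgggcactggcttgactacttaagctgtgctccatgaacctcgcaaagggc
GAGGAA or its complement stood in all 4 sequences, and in 23.3% of 32851 RefSeq promoters cut to the same window. The pattern TTGCNNAA stood in that of Clec4e alone among the 4, from 66 to 59 bases before the start, and in 9.56% of all promoters. No match to TGANTCA (6.75% of all promoters) or GGANNTTCC (3.59%) was in these 4 windows. No marked match overlapped another. A match is a run of letters and was not tested as a binding site.

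The cells came from pooled brains of C57BL/6 mice aged 2 to 4 days, grown as mixed glia for 12 days. Microglia were taken out by CD11b selection and astrocytes were selected from what remained, and both were treated for 4 h. All groups, controls included, are bulk cultures of wild-type cells in serum-fed medium, and no group carries a genetic change. Microglia received DMSO (the vehicle), Nec-1s alone, TNF together with 5z-7, which blocks the kinase TAK1 (T/5z), TNF together with a Smac mimetic and zVAD, which blocks caspases (T/S/Z), or either stimulus plus Nec-1s (written T/5z/N or T/S/Z/N), with 4 libraries in each of 6 groups. Astrocytes received 4 of these treatments, DMSO, Nec-1s, T/S/Z and lastly T/S/Z/N, with 3 libraries in each of 4 groups. Both stimuli are known to drive RIPK1 kinase activity. The files used here hold no measure of cell death.

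Values are log2(FPKM + 1), where FPKM is the number of fragments scaled by exon length and library size, as the authors computed it. In the microglial table, each gene's mean over the 6 treatments was the same in every replicate (largest difference 8.33e-05). Replicates 1 to 3 had thus been adjusted gene by gene, a step not described in the methods. A plain shift would leave the differences between treatments within a replicate as they were, and the tests below use these differences. Whether the values were also rescaled is unknown. Equal means take out spread between replicates, so the ranges and SDs of the microglial groups can be narrower than in unadjusted values. The 15 microglial markers summed to between 15145 and 19050 FPKM in every microglial library. The 10 astrocyte markers summed to between 3117 and 3683 FPKM in the astrocyte libraries.

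In unstimulated microglia Clec4e was a moderately expressed gene. Its log2 value was 4.29, 4.57, 4.83 and 4.15 in the 4 DMSO libraries and 4.52, 4.20, 4.81 and 4.25 with Nec-1s alone. After T/5z it was 10.50, 10.49, 10.40 and 10.53, and after T/S/Z 9.94, 10.09, 9.88 and 10.17. The stimulated libraries lay far above all unstimulated ones, and every T/5z library lay above every T/S/Z library. The rise was 6.02 ± 0.12 (log2 change ± SE, n = 4 pairs, adjusted p = 3.7e-07) after T/5z, a 64.8-fold change that was the third largest rise of 10524 tested genes. After T/S/Z it was 5.56 ± 0.13 (adjusted p = 8.85e-08), a 47.0-fold change. By mean level, which is set per exon length, Clec4e went from rank 3226 of 15385 genes with DMSO to rank 28 after T/5z and rank 52 after T/S/Z. In bulk cultures, a change in the level per cell and a change in which cells remained cannot be told apart.

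Nec-1s lowered Clec4e without bringing it near its unstimulated level. The log2 value was 9.53, 9.40, 9.06 and 9.57 in the T/5z/N libraries and 9.19, 9.22, 8.97 and 9.29 in the T/S/Z/N libraries. Both sets lay below every library of their stimulus alone and more than 4 log2 units above every DMSO library. Adding Nec-1s changed Clec4e by -1.09 ± 0.07 after T/5z (adjusted p = 1.18e-05) and by -0.85 ± 0.06 after T/S/Z (adjusted p = 3.8e-05), lower in 4 of 4 pairs each time. In FPKM, 47.2% ± 5.43 (SD, n = 4) of the T/5z level and 55.6% ± 2.87 of the T/S/Z level was left. Against DMSO, Clec4e was still 30.4-fold higher in T/5z/N (4.93 ± 0.17, adjusted p = 4.58e-07), where no tested gene had a larger rise. It was 26.1-fold higher in T/S/Z/N (4.71 ± 0.14, adjusted p = 8.43e-07), where 3 genes rose more.

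Clec5a also rose after both stimuli and was lowered by Nec-1s, from a lower start. With DMSO its log2 value was 3.46, 3.50, 3.78 and 3.30, and with Nec-1s alone 3.62, 3.43, 3.96 and 3.27. It reached 7.18, 7.26, 6.88 and 7.03 after T/5z and 7.31, 7.44, 7.09 and 7.39 after T/S/Z. These stimulated ranges overlapped each other and stood clear of the unstimulated ones. The rise was 3.58 ± 0.11 after T/5z (11.9-fold, adjusted p = 9.35e-07) and 3.79 ± 0.12 after T/S/Z (13.9-fold, adjusted p = 2.32e-07). With Nec-1s the values were 5.99, 5.87, 5.69 and 6.11 in T/5z/N, and 6.08, 6.16, 6.26 and 6.54 in T/S/Z/N. They lay between the unstimulated and the stimulated libraries, with no overlap on either side. The Nec-1s change was -1.17 ± 0.07 after T/5z (adjusted p = 7.42e-06) and -1.05 ± 0.09 after T/S/Z (adjusted p = 6.08e-05). In FPKM, 44.2% ± 5.95 and 48.6% ± 8.23 (SD, n = 4) was left, and Clec5a was still 5.30-fold above DMSO in T/5z/N and 6.72-fold above it in T/S/Z/N.

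**Figure D1:**
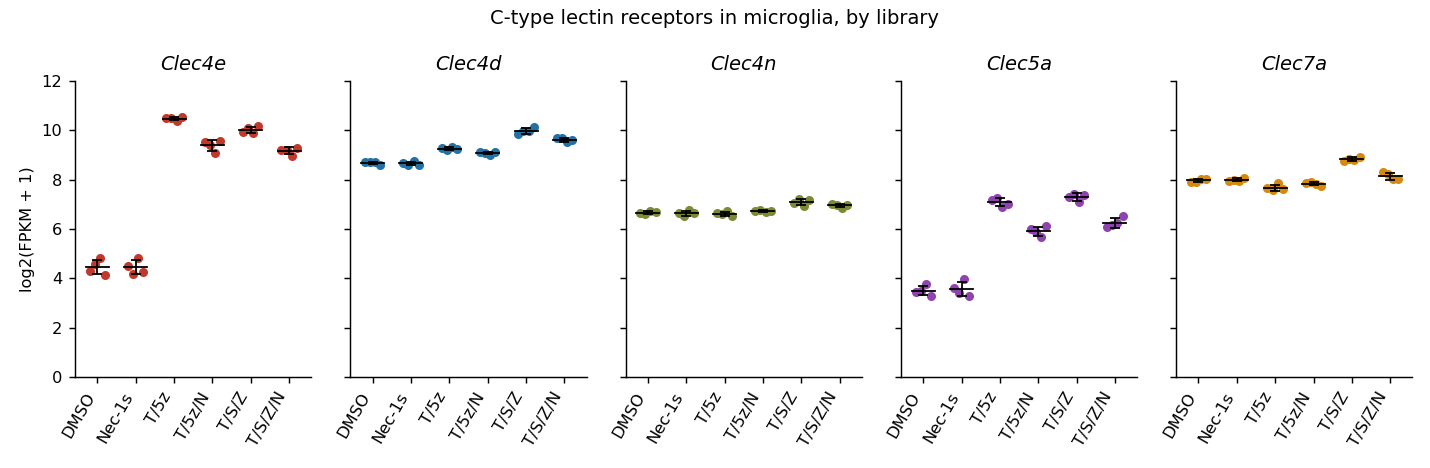
The log2(FPKM + 1) value of each receptor gene (vertical axis) in every microglial library, by treatment (horizontal axis). Points are the 4 libraries of a group and bars the mean ± SD. Clec4e and Clec5a stand far higher in the 4 stimulated groups than with DMSO or Nec-1s alone, and Clec4n stays between 6.52 and 7.20.

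Clec4d, the partner of Clec4e, was already among the most abundant transcripts before any stimulus, at rank 157 of 15385 with DMSO. Its log2 value was 8.71, 8.72, 8.70 and 8.62 with DMSO, and 9.84, 9.98, 9.99 and 10.13 after T/S/Z. The groups did not overlap, and the rise of 1.30 ± 0.06 (2.46-fold, adjusted p = 1.55e-06) passed the test. After T/5z the value was 9.27, 9.22, 9.33 and 9.23, above every DMSO library. That change of 0.58 ± 0.04 had an adjusted p of 3.72e-05 and a fold of 1.49, just under the minimum of 1.5 for a call. It passed that minimum, at 0.60, without replicate 2 and, at 0.65, when each library was centred on its median. With Nec-1s the values were 9.67, 9.70, 9.52 and 9.62 in T/S/Z/N and 9.12, 9.08, 9.01 and 9.12 in T/5z/N. Each lay below all libraries of its stimulus alone, by -0.36 ± 0.08 (adjusted p = 0.00601) and -0.18 ± 0.05 (adjusted p = 0.0187), changes of less than 1.5-fold. Clec4d remained 1.92-fold above DMSO in T/S/Z/N (0.94 ± 0.07, adjusted p = 2.38e-05).

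Among the 5 genes, Clec7a differed most between the 2 stimuli. Its log2 value was 7.92, 7.90, 8.04 and 8.03 with DMSO, 7.65, 7.59, 7.85 and 7.61 after T/5z, and 8.75, 8.84, 8.80 and 8.94 after T/S/Z. The T/5z libraries lay below all DMSO libraries and the T/S/Z libraries above them all. The T/S/Z rise was 0.86 ± 0.05 (1.81-fold, adjusted p = 3.08e-06), and the T/5z change of -0.29 ± 0.05 (adjusted p = 0.00191) was under the fold minimum. With Nec-1s, Clec7a was at 8.30, 8.22, 8.01 and 8.03 in T/S/Z/N and at 7.86, 7.90, 7.81 and 7.75 in T/5z/N. The T/S/Z/N values overlapped those of Nec-1s alone (7.96, 7.99, 7.94 and 8.08). Nec-1s changed Clec7a by -0.69 ± 0.08 after T/S/Z (adjusted p = 0.000262), with 62.4% ± 8.65 of its FPKM left. Quantile normalization ended both calls, at 0.37 for T/S/Z against DMSO and -0.40 for the Nec-1s change.

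Clec4n stayed within a narrow band. With DMSO its log2 value was 6.64, 6.63, 6.73 and 6.68, after T/5z 6.64, 6.62, 6.72 and 6.52, and after T/S/Z 7.05, 7.20, 6.94 and 7.18. Only the T/S/Z libraries stood clear of the DMSO libraries among these. The T/S/Z change of 0.42 ± 0.07 had an adjusted p of 0.000711 and a fold of 1.34, so it was not called, and the T/5z change was -0.05 ± 0.05 (adjusted p = 0.412). With Nec-1s the log2 value lay between 6.69 and 6.78 in T/5z/N and between 6.87 and 7.03 in T/S/Z/N. Nec-1s moved it by 0.12 ± 0.05 after T/5z (adjusted p = 0.0778) and by -0.13 ± 0.05 after T/S/Z (adjusted p = 0.058).

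A gene was called when its fold change was over 1.5 and its adjusted p, corrected over all tested genes, under 0.05. By this rule 2 of the 5 receptor genes rose after T/5z, against 11.1% of all tested genes, and 4 of 5 rose after T/S/Z, against 12.2%. When Nec-1s was added, 2 of 5 fell after T/5z and 3 of 5 after T/S/Z, where 4.52% and 6.72% of tested genes fell. Above DMSO in spite of Nec-1s were 2 of 5 in T/5z/N (6.16% of tested genes) and 3 of 5 in T/S/Z/N (6.2%). All these comparisons with DMSO share the same 4 control libraries. With Nec-1s alone, 0 of the 5 differed from DMSO, as did 0% of all tested genes, although 892 of 10524 genes had an unadjusted p under 0.05. None of the 5 was called there by unadjusted p or with an ordinary variance per gene either.

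**Figure D2:**
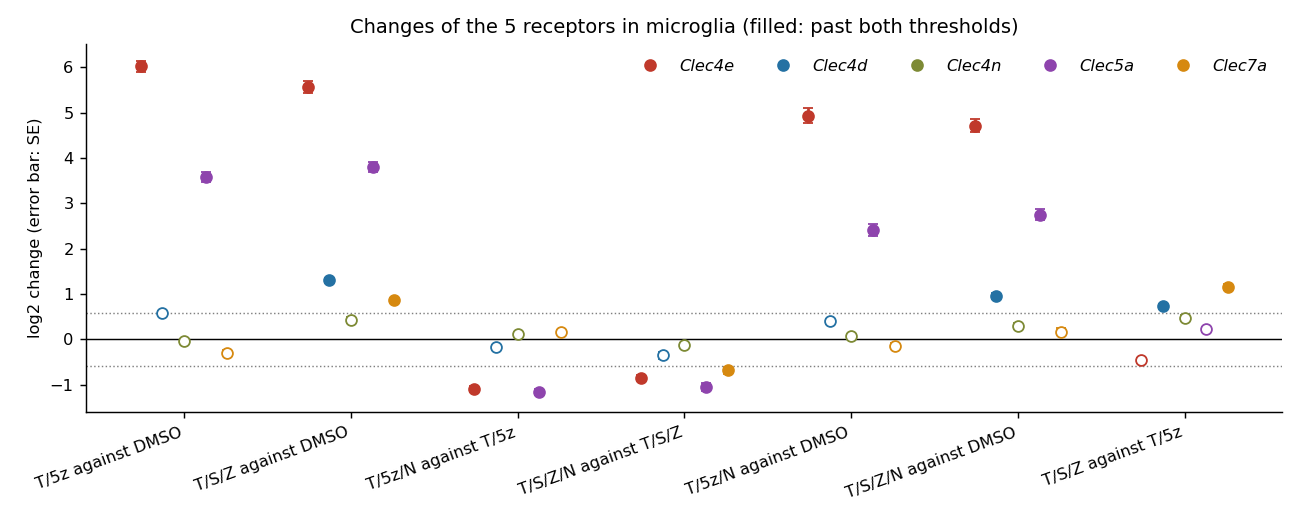
Log2 change ± SE (vertical axis) of the receptor genes in 7 microglial comparisons (horizontal axis), from 4 pairs of libraries each. Filled points passed both the fold minimum, drawn as dotted lines, and the adjusted p threshold. Clec4e and Clec5a lie far above the lines in each comparison of a stimulated group with DMSO, and below the lower line where Nec-1s was added.

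Set directly against T/5z, T/S/Z gave higher Clec7a (1.15 ± 0.07, 2.23-fold, adjusted p = 3.52e-05) and higher Clec4d (0.72 ± 0.06, 1.65-fold, adjusted p = 0.000185). Thus 2 of 5 were called higher, against 5.42% of tested genes. The Clec4d call was lost at 0.51 with quantile normalization. Clec4e was lower after T/S/Z than after T/5z by a change of -0.46 ± 0.06 (adjusted p = 0.000807), which is under the fold minimum and passed it at -0.64 with quantile normalization. Clec4n differed by 0.47 ± 0.08 (adjusted p = 0.00284) and Clec5a by 0.22 ± 0.05 (adjusted p = 0.0155), both short of 1.5-fold. With Nec-1s present, T/S/Z/N against T/5z/N gave 0 calls among the 5 and 3.38% over all tested genes. Clec4d was nearest to one there, at 0.55 ± 0.04 (adjusted p = 4.96e-05).

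Whether Nec-1s acted differently after the 2 stimuli was tested as a difference of differences. Clec7a alone among the 5 was called, at -0.85 ± 0.11 (adjusted p = 6.9e-05), meaning that the Nec-1s change was lower after T/S/Z than after T/5z in 4 of 4 replicates. Over all tested genes 6.47% were called. Clec7a was not lowered by Nec-1s after T/5z, where its change was 0.16 ± 0.06 (adjusted p = 0.0557). For Clec4n the difference was -0.25 ± 0.08 (adjusted p = 0.0369), under the fold minimum. For Clec4e it was 0.24 ± 0.09 (adjusted p = 0.0572), for Clec4d -0.17 ± 0.09 (adjusted p = 0.157) and for Clec5a 0.13 ± 0.13 (adjusted p = 0.504).

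**Figure D3:**
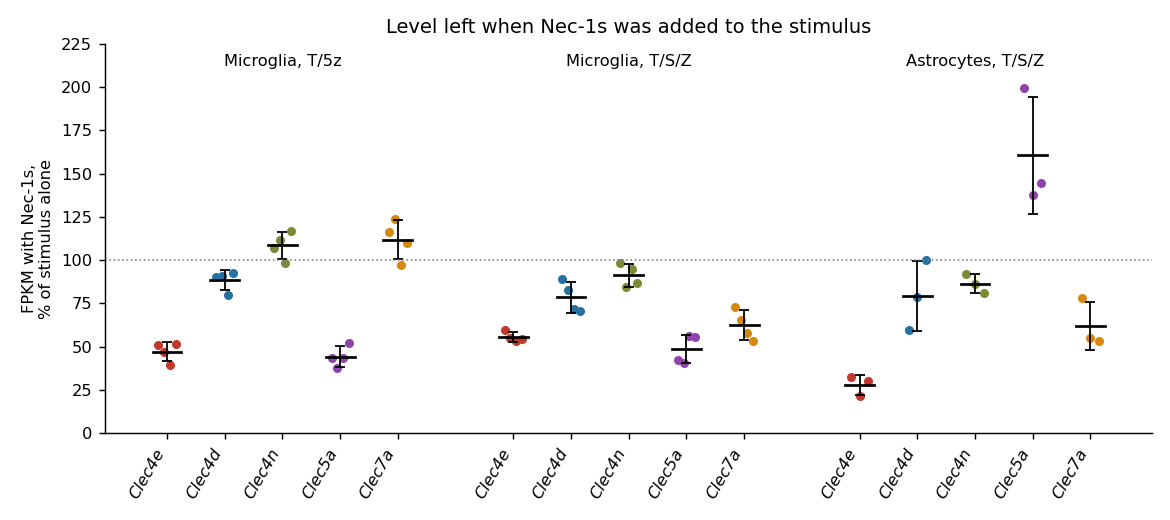
FPKM with Nec-1s as a percent of the FPKM with the stimulus alone (vertical axis), for each receptor gene (horizontal axis) in the same replicate. Points are replicates and bars the mean ± SD. In microglia, Clec4e and Clec5a sit at means between 44.2% and 55.6% after both stimuli, and Clec7a sits at 112% after T/5z but at 62.4% after T/S/Z.

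Ordered by mean level, the groups of Clec4e ran T/5z, T/S/Z, T/5z/N, T/S/Z/N, DMSO and Nec-1s. The ranges of T/5z/N overlapped those of T/S/Z/N, and those of DMSO overlapped Nec-1s. For Clec5a the order was T/S/Z, T/5z, T/S/Z/N, T/5z/N, Nec-1s and DMSO, with overlap within each successive pair and none between the pairs. For Clec4d it was T/S/Z, T/S/Z/N, T/5z, T/5z/N, DMSO and Nec-1s, and there only DMSO and Nec-1s overlapped. The range of T/S/Z stood above all others for Clec7a, while that of Clec4n overlapped with T/S/Z/N.

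Across the 24 microglial libraries, the tested genes most like Clec4e were Sod2 (Pearson r 0.999), Vasp (0.998) and Icam1 (0.998). Those most like Clec5a were Ifi205 (0.997), Ptgir (0.994) and Abhd17c (0.993). For Clec4d they were Rbpj (0.990), Cd14 (0.984) and Fth1 (0.980), for Clec7a Vps37b (0.961), Oser1 (0.958) and Slc35e4 (0.957), and for Clec4n Hax1 (0.918), Prdx1 (0.904) and Cstb (0.899). These libraries share 6 treatments and the equalised replicate means, so they are not 24 independent observations.

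The adaptors of the receptors were abundant in microglia and hardly moved. Fcer1g had a mean log2 value of 9.99 with DMSO, 10.21 after T/5z and 10.26 with T/S/Z, and Tyrobp of 10.31, 10.22 and 10.37. Neither passed the fold minimum in any microglial comparison. Further down, the kinase Syk rose by 1.49 ± 0.09 after T/5z (adjusted p = 1.52e-05) and by 0.73 ± 0.12 after T/S/Z (adjusted p = 0.000942), and it was lower after T/S/Z than after T/5z by a change of -0.76 ± 0.07 (adjusted p = 0.000219). Card9, which links Syk to NF-kB, fell by 0.77 on the log2 scale after T/5z (SE 0.09, adjusted p = 0.000223) and by 0.76 after T/S/Z (SE 0.13, adjusted p = 0.000912). Its partner Bcl10 rose by 0.66 ± 0.07 after T/S/Z (adjusted p = 0.00011) and changed by 0.50 ± 0.06 after T/5z (adjusted p = 0.000441, not called). Malt1, the protease of the complex, rose by 3.01 ± 0.06 after T/5z (adjusted p = 3.7e-07) and 3.03 ± 0.10 after T/S/Z (adjusted p = 2.76e-07). With Nec-1s added, Malt1 changed by -0.89 ± 0.04 after T/5z (adjusted p = 3.29e-06) and by -0.78 ± 0.06 after T/S/Z (adjusted p = 5.01e-05).

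**Figure D4:**
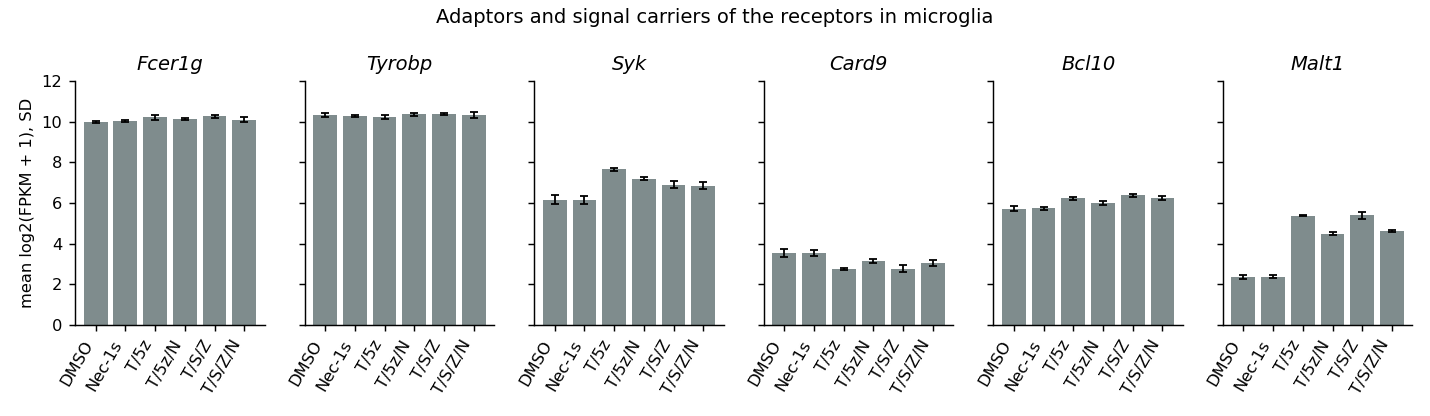
Mean log2(FPKM + 1) of 6 genes that carry the receptors' signal (vertical axis) in the microglial groups (horizontal axis), with bars from 0 and error bars for the SD of 4 libraries. Fcer1g and Tyrobp are level across treatments, Malt1 rises with either stimulus, and Card9 is lower in both groups with a stimulus alone than with DMSO.

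Of 20 listed adaptors, kinases and signal carriers, 18 were tested in microglia. After T/5z, 5 rose and 3 fell, with a median change of 0.02 against -0.06 over all tested genes. After T/S/Z, 4 rose and 3 fell, with a median of 0.23 against -0.08. Of all tested genes, 11.1% rose and 13.3% fell after T/5z, and 12.2% rose and 17.5% fell after T/S/Z. Besides those named, Prkcd, the kinase that acts on Card9, rose by 1.11 ± 0.09 after T/5z (adjusted p = 5.1e-05). Nfatc1, a transcription factor, fell by 1.32 and 1.35 after T/5z and T/S/Z (SE 0.05 and 0.07, adjusted p = 2.48e-06 and 1.85e-06). Nec-1s lowered 1 of the 18 after T/5z and 1 with T/S/Z, Malt1 both times, where 4.52% and 6.72% of tested genes fell. It raised 1 of the 18 after T/S/Z, Vav2, by 0.83 ± 0.08 (adjusted p = 9.8e-05), against 5.35% of tested genes. Of the 3 phosphatases that restrain these receptors, Inpp5d (SHIP1) fell by 1.75 after T/5z and by 1.32 with T/S/Z (SE 0.07 and 0.06, adjusted p = 2.91e-06 and 8.7e-07), and the other two were not called.

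CARD9 signalling is known to induce a set of cytokine, chemokine and other genes, many of which TNF and other stimuli induce as well. Of the 13 listed, 11 passed the filter, 6 of them only through stimulated libraries, so all 13 are given from the fit without a filter, over 15385 genes. There 9 rose after T/5z (median change 1.45), against 8.07% of all genes, and 13 after T/S/Z (median 2.87), against 8.68%. The highest after T/S/Z were the chemokines Cxcl2 at 7.55 ± 0.32 and Cxcl1 at 5.02 ± 0.29, the cytokine Tnf at 6.56 ± 0.17 and the transcription factor Egr2 at 5.72 ± 0.33. Nec-1s lowered 8 of the 13 after T/5z (median change -1.23), against 3.29% of all genes, and 11 after T/S/Z (median -2.19), against 5.19%. With Nec-1s present, their median change from DMSO was 0.14 for the T/5z/N group and 0.39 for T/S/Z/N.

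Of 40 listed C-type lectins outside the receptor set, 17 were in the microglial table and 11 were tested, of which 5 rose and 2 fell after T/5z, and 5 rose and 1 fell after T/S/Z. Over all tested genes 11.1% rose and 13.3% fell after T/5z, and 12.2% rose and 17.5% fell after T/S/Z. Passing the filter only through stimulated libraries held for 1 of the 11, and the counts were the same over all 17 without the filter. Cd69, an activation marker, rose by 4.04 ± 0.08 after T/5z and 3.80 ± 0.11 with T/S/Z. Olr1, the scavenger receptor for oxidised lipoprotein, rose by 1.70 ± 0.08 and 3.85 ± 0.19, and was higher after T/S/Z than after T/5z by 2.16 ± 0.20. Colec12, a scavenger receptor with a collagen-like stalk, fell by 0.87 after T/5z (SE 0.05). Mrc1, the mannose receptor, fell by 0.64 after T/5z (SE 0.05), and Clec4a3, another of the listed lectins, fell by 0.96 after T/S/Z (SE 0.06). Nec-1s lowered 2 of the 11 after T/5z, Olr1 and Cd69, and after T/S/Z it lowered 1, Olr1, and raised 1, Clec4a1. Over all tested genes 4.52% fell when Nec-1s was added to T/5z. When it was added to T/S/Z, 6.72% fell and 5.35% rose. Cd69 changed by -0.85 ± 0.07 when Nec-1s was added to T/5z, and Clec4a1 by 0.60 ± 0.07 when it was added to T/S/Z. Nec-1s lowered Olr1 by a change of -1.03 ± 0.08 after T/5z and -1.44 ± 0.09 with T/S/Z.

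C/EBP factors and PU.1 are myeloid transcription factors whose pattern was searched in the upstream sequences. All 5 listed in microglia were tested. Spi1, which encodes PU.1, rose by 0.84 ± 0.05 after T/5z and 0.78 ± 0.04 with T/S/Z, and Cebpb by 0.72 ± 0.17 and 0.94 ± 0.14. Cebpa fell by 2.94 and 2.61 (SE 0.06 and 0.05). After T/5z, 3 of the 5 rose and 2 fell, and after T/S/Z, 2 rose and 1 fell, beside the shares of all tested genes given above for these comparisons, 11.1% and 13.3% for T/5z and 12.2% and 17.5% for T/S/Z. Whether any of these factors acts on the receptor genes was not tested.

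In the microglial libraries the summed level of the 10 astrocyte markers moved with the stimuli. It was 9.64 to 11.5 FPKM with DMSO, 15.6 to 27.8 after T/5z and 16.9 to 26.2 with T/S/Z, and with Nec-1s added 11.1 to 11.3 in T/5z/N and 6.73 to 7.96 in T/S/Z/N. Of the 7 that passed the filter 4 did so only through stimulated libraries. Without the filter, 5 of the 10 rose after each stimulus, against 8.07% (T/5z) and 8.68% (T/S/Z) of all genes, and 5 fell when Nec-1s was added to either, against 3.29% and 5.19%. Clec4e and Clec5a moved in these directions too. None of the 10 was at 0 in all libraries of a group. The part of these transcripts in the receptor results was not tested. Neutrophils express Clec4e, Clec4d and Clec5a strongly. Of 9 neutrophil markers 5 were listed, and they summed to between 0.0777 and 18.1 FPKM with DMSO, 0.0710 and 10.8 after T/5z and 0.135 and 14.4 with T/S/Z, so the ranges overlapped.

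All 5 transcripts had lower values in the astrocyte table than in the microglial one. With DMSO the mean FPKM was 29.7% of the microglial one for Clec5a and no more than 2.81% for the other genes. Values near 0 on the log2 scale are small numbers of fragments. The smallest step between low values was worth between 0.0446 and 0.0469 FPKM times kilobases, and with 1 step taken as 1 fragment Clec4e rested on 52 to 78 fragments and Clec7a on 10 to 33 in the DMSO libraries. How many reads make 1 step is unknown. The filter asked for a log2 value of 1 in 3 libraries. Clec4e and Clec7a reached it in none of the 6 unstimulated libraries and Clec4d in 2 of them, so these 3 genes entered the filtered fit only through stimulated libraries and had to be higher there. Clec7a did so through all 3 T/S/Z libraries and 1 of T/S/Z/N. The comparisons of these 3 genes with DMSO, and that of Clec7a between T/S/Z/N and T/S/Z, are therefore given from the fit without a filter, over all 14551 genes.

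Clec4e was at 0.70, 0.78 and 0.55 in the astrocyte DMSO libraries and at 0.60, 0.74 and 0.66 with Nec-1s alone. After T/S/Z it was 3.00, 3.46 and 3.46, and in T/S/Z/N 1.71, 1.66 and 2.01. The T/S/Z libraries stood highest, and the T/S/Z/N libraries lay between them and the unstimulated ones with no overlap. The change was 2.63 ± 0.14 (n = 3 pairs, adjusted p = 2.35e-05, no filter) with T/S/Z, and -1.52 ± 0.12 (adjusted p = 0.00089) when Nec-1s was added, the 12th largest fall of 13842 tested genes. In FPKM 28.0% ± 5.72 (SD, n = 3) of the T/S/Z level was left, still 1.12 ± 0.14 on the log2 scale above DMSO (adjusted p = 0.00397, no filter). The added 1 understates these changes, since the mean FPKM went from 0.601 to 9.02.

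**Figure D5:**
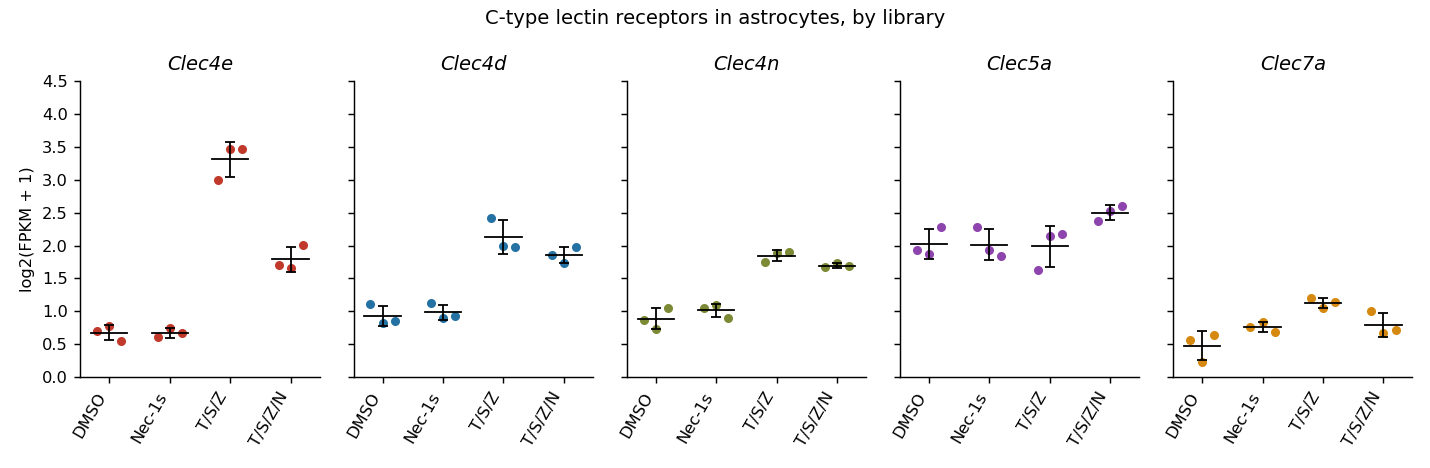
The log2(FPKM + 1) value of each receptor gene (vertical axis) in every astrocyte library, by treatment (horizontal axis), with the mean ± SD of 3 libraries. Clec4e goes from below 1 with DMSO to between 3.00 and 3.46 after T/S/Z, and Clec5a shows overlapping values with DMSO and T/S/Z.

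Clec4d was at 1.11, 0.83 and 0.85 with DMSO and 2.43, 1.99 and 1.97 after T/S/Z, and Clec4n at 0.86, 0.74 and 1.06 and then 1.75, 1.89 and 1.90. Neither gene's groups overlapped. Clec4d changed by 1.20 ± 0.11 (adjusted p = 0.000299, no filter) and Clec4n by 0.96 ± 0.11 (adjusted p = 0.000794). Clec7a went from 0.56, 0.23 and 0.64 to 1.20, 1.05 and 1.15, a change of 0.65 ± 0.125 (adjusted p = 0.00735, no filter). In the filtered fit Clec7a missed the threshold without replicate 1 (adjusted p = 0.0612) and was under the fold minimum, at 0.57, without replicate 2. Clec5a, the highest of the 5 in unstimulated astrocytes at 1.93, 1.87 and 2.29, was 1.63, 2.15 and 2.18 after T/S/Z. Its ranges overlapped, and the change was -0.04 ± 0.13 (adjusted p = 0.839).

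Over the 13842 tested astrocyte genes 6.39% rose and 8.99% fell after T/S/Z, and 4.36% were higher in T/S/Z/N than with DMSO. Without the filter, over all 14551 genes, these shares were 6.17%, 8.67% and 4.16%. When Nec-1s was added to T/S/Z, 1.59% of tested genes fell, Clec4e alone among the 5. In T/S/Z/N, Clec4d was at 1.85, 1.74 and 1.97 and Clec4n at 1.67, 1.74 and 1.69, changes of -0.28 ± 0.13 (adjusted p = 0.199) and -0.15 ± 0.10 (adjusted p = 0.326) from T/S/Z. Both were above DMSO, by 0.92 ± 0.11 (adjusted p = 0.00372, no filter) and 0.81 ± 0.11 (adjusted p = 0.00396). Clec5a was higher in T/S/Z/N, at 2.38, 2.52 and 2.61, than in every T/S/Z library, by 0.51 ± 0.11 (adjusted p = 0.0381), under the fold minimum. Clec7a was at 1.01, 0.67 and 0.72 there, a change of -0.33 ± 0.10 from T/S/Z (adjusted p = 0.0917, no filter). With Nec-1s alone 0 of the 5 differed from DMSO, against 0.0144% of tested genes. With an ordinary variance per gene, which has 2 residual degrees of freedom here, no astrocyte call on the 5 genes was kept (adjusted p = 0.0621 for Clec4e after T/S/Z), and with 5 in place of 1 added before the log only that of Clec4e after T/S/Z and with Nec-1s added was kept.

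The labels name different providers for the libraries of the 2 cell types, the methods name 1 platform for all, and the tables were normalised separately, so levels are set side by side with no test. After T/S/Z the mean astrocyte level was 0.868% of the microglial one for Clec4e, 0.337% for Clec4d, 1.92% for Clec4n, 1.91% for Clec5a and 0.262% for Clec7a. With DMSO it was 2.81% for Clec4e, 0.222% for Clec4d, 0.849% for Clec4n, 29.7% for Clec5a and 0.162% for Clec7a. The 15 microglial markers had a median of 0.821% with DMSO (0.349% to 43.0%) and 0.471% after T/S/Z (0.177% to 18.7%). Exon lengths differed between the tables for Clec4e, at 2518 bases in the microglial and 4965 bases in the astrocyte annotation, and without the length scaling its share was 5.53% with DMSO and 1.71% after T/S/Z. The markers' median without it was 1.20% with DMSO and 0.766% after T/S/Z.

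In the astrocyte libraries the microglial markers summed to 145 to 152 FPKM with DMSO, 92.6 to 98.2 after T/S/Z and 127 to 134 in T/S/Z/N, with none of the 15 at 0 in all libraries of a group. Of the 14 tested, 0 rose and 10 fell after T/S/Z, with a median change of -0.68 against -0.11 over all tested genes. Of all tested astrocyte genes 6.39% rose and 8.99% fell in that comparison. The share of the astrocyte signal that came from remaining microglia was not tested. Markers of fibroblasts and mural cells summed to 282 to 312 FPKM with DMSO, 67.3 to 75.5 after T/S/Z and 257 to 265 in T/S/Z/N. The 1 endothelial marker listed was at 12.0 to 12.6, 2.62 to 3.27 and 8.66 to 9.86 FPKM in these groups. Whether such cells had a part in the receptor changes was not tested. Fcer1g changed by -0.33 ± 0.10 (adjusted p = 0.0373) and Tyrobp by -0.59 ± 0.20 (adjusted p = 0.0534) after T/S/Z in astrocytes, neither called. Bcl10 rose by 0.99 ± 0.07 (adjusted p = 7.32e-05) and Malt1 by 0.71 ± 0.10 (adjusted p = 0.0019). Of the 20 adaptors and carriers 14 were tested there, 3 of which rose and 1 of which fell after T/S/Z, beside 6.39% and 8.99% of all tested genes. Syk and Card9 were not listed in the astrocyte table. Of the genes that CARD9 signalling induces, 10 passed the filter there, 7 of them only through stimulated libraries. Without the filter 9 of 11 rose after T/S/Z, against 6.17% of all genes, and 7 fell and 1 rose when Nec-1s was added, against 1.51% and 1.44%. Of 7 other C-type lectins, 2 rose and 2 fell after T/S/Z without the filter, and of the 5 C/EBP and PU.1 family factors 2 rose. There 6.17% of all genes rose and 8.67% fell.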

How the data were processed

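Polyadenylated RNA of 24 microglial and 12 astrocyte libraries had been sequenced and processed by the authors in OmicSoft Array Studio, and the deposited values are log2 of FPKM with 1 added, scaled to a common 75th percentile (4.11 to 4.16 in microglia, 4.73 to 4.74 in astrocytes). The aligner is not given in the sources used here, and read totals are unknown. The receptor genes, gene lists and tests were chosen with earlier results of these data known. From the pathway lists, at most 4 called genes per direction with the largest changes were named, besides Fcer1g, Tyrobp, Syk, Card9, Bcl10 and Malt1; 1 gene is not reported here. Genes at log2 1 or more in at least 4 microglial or 3 astrocyte libraries were tested, 10524 and 13842. The comparisons of Clec4e, Clec4d and Clec7a with DMSO in stimulated astrocytes, and of Clec7a when Nec-1s was added to T/S/Z there, are from the same fit without this filter, as are the counts of lists said to be without it. limma 3.58.1 (R 4.3.3) was fitted to the libraries of each comparison with the replicate number as a block, after the authors' paired test, with eBayes and a trend, 2-sided, with Benjamini-Hochberg adjustment over all tested genes. The fit was tested on simulated data. The labels call the libraries biological replicates. In astrocytes, same-numbered libraries deviated together with correlations from -0.15 to 0.43, so the numbers were not shown to pair them. In microglia the equalised replicate means left this unchecked. Each alternative changed 1 choice: block, variance, samples fitted, added constant, filter, normalization, fold minimum, adjustment, control group and replicates.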

Additional observations from a re-analysis of the deposited data

Results flagged for a closer look

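Clec7a was flagged because the Nec-1s effect in microglia differed between T/S/Z and T/5z, with a log2 difference of -0.85 (adjusted p = 6.9e-05 by limma). Nec-1s changed Clec7a by -0.69 after T/S/Z and by 0.16 after T/5z, lower after T/S/Z in 4 of 4 replicates.

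Clec4d was flagged because 1 of 4 DMSO libraries of microglia stood apart. Its log2 value was 8.62 in replicate 4, and the other three lay at 8.70 to 8.72. By this rule, chance flags about 1 in 20 groups, and 30 groups were looked at. Without replicate 4, Clec4d was called in the same comparisons with DMSO.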

How the results depend on the processing

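Of 191 recomputed counts of called receptor genes, 181 stayed within 1.5 times the reported count. With a fold minimum of 2, the count became 1 for T/S/Z/N against T/S/Z, 1 for T/S/Z against T/5z and 0 for the difference of the Nec-1s effect in microglia, and in astrocytes 2 for T/S/Z against DMSO and 1 for T/S/Z/N against DMSO, by construction of the threshold. With an ordinary per-gene variance, the 3 astrocyte counts of T/S/Z against DMSO, T/S/Z/N against T/S/Z and T/S/Z/N against DMSO each became 0. These astrocyte counts are from the filtered genes, among which Clec4e, Clec4d and Clec7a had to be higher in stimulated libraries, so they give no support to a rise. With 5 added before the log, they were 1 for T/S/Z against DMSO and 0 for T/S/Z/N against DMSO, since the larger constant shrinks changes of low values. Without the replicate block, every count was the same as with it: for example 4 for T/S/Z against DMSO in microglia and 1 for T/S/Z/N against T/S/Z in astrocytes. In microglia each gene's replicate means had been made equal before deposit, so this says little about the block there.

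Of 955 recomputed changes of single receptor genes, 17 changed sign, and none of these had been called. With Nec-1s alone against DMSO in microglia, leaving out each replicate in turn gave -0.0972 to 0.0991 for Clec4e, -0.0484 to 0.00507 for Clec4d, -0.0458 to 0.00157 for Clec4n and -0.00237 to 0.0597 for Clec7a. In astrocytes the same comparison gave -0.0636 to 0.0376 for Clec4e (0.00955 without replicate 2) and -0.193 to 0.208 for Clec5a, and quantile normalization gave 0.0175 and 0.00781. Clec4n changed by 0.0228 after T/5z with median centring, and with quantile normalization by 0.0915 when Nec-1s was added to T/S/Z and by -0.0607 in T/5z/N against DMSO. Quantile normalization also gave -0.0262 for Clec7a in T/S/Z/N against DMSO and 0.036 for the Clec4d difference of the Nec-1s effect. Clec5a in astrocytes after T/S/Z was at 0.117 with quantile normalization, 0.0159 with median centring and -0.203 to 0.0874 with a replicate left out. The causes were not tested. Read totals are unknown.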
